A study of Homo sapiens with 11 samples.

Results

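Molecular chaperones of the heat shock families and of the tubulin-folding pathway were examined in Reh, a cell line from a B-precursor leukaemia with the ETV6-RUNX1 fusion. The set was a list of 40 gene symbols. It holds heat shock factor 1 and 2, the HSP90, HSP70, HSP110, HSP40 and small heat shock families, the mitochondrial chaperonin, 3 co-chaperones, the subunits of the CCT chaperonin and the subunits of prefoldin. Of the 40 genes, 35 were measured among 19775 genes in all, each by its brightest probe set that is listed with only that gene. These 35 comprise 23 heat shock genes, 7 of 8 CCT subunits and 5 of 6 prefoldin subunits. HSPA1A, HSPA8, TCP1 and PFDN6 lie only on probe sets that are listed with several genes, and HSF2 was not analysed here. HSPB11 is listed by its current symbol IFT25.

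All cells profiled stably expressed miR-125b from a lentiviral vector that also carries eGFP, so the control cells carried it too, and no array of the stable line with a scrambled insert was analysed here. Control cells received a scrambled precursor oligonucleotide and the 3 treated groups received miR-99a, miR-100 or the pair of precursors. A single oligonucleotide was given at 66 µM and the pair at 33 µM each, with transfections 72 h apart and harvest 48 h after the last. There were 2 control arrays and 3 arrays for each treatment, 11 in all, and since nothing states that replicates came from separate cultures, p-values may measure technical spread. The study asked how these microRNAs relate to vincristine resistance. Vincristine acts by binding tubulin.

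Chaperones bind proteins that are not yet folded, or no longer folded, and release them in cycles of ATP use. HSP40 proteins deliver clients to HSP70, HSP110 proteins and BAG proteins reset HSP70 by exchanging its nucleotide, and STIP1 passes clients on to HSP90. Heat shock factor 1 raises many of these genes under stress by binding heat shock elements, which are inverted repeats of a short GAA unit. CCT is a ring-shaped chaperonin in the cytosol that folds actin and tubulin, and prefoldin captures these proteins as they leave the ribosome and hands them to CCT.

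The mature sequences of the microRNAs involved are shown because miR-99a and miR-100 have the same seed, so the oligonucleotides are close relatives. They are taken from RefSeq (GRCh38.p14), 5′ to 3′, with the seed (bases 2 to 8) in capitals.
miR-99a-5p: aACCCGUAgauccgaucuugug
miR-100-5p: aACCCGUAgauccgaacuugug
miR-125b-5p: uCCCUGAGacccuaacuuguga
miR-99a and miR-100 differ only by U16A, counted from base 1 at the 5′ end, with the base of miR-99a given first. The seed of miR-125b is a different one.

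Of the 35 measured genes, 31 have a promoter window in the RefSeq table (GRCh38.p14), and the heat shock element separates a few of them from most promoters. A 3-unit element, GAANNTTCNNGAA on either strand, was in a window of 5 of these 31 genes, namely HSP90AA1, HSP90AB1, DNAJA1, DNAJB6 and HSPD1. It was in a window of 166 of 27305 genes, or 0.608%. No window of the 6 CCT genes or the 4 prefoldin genes with an entry held it. The 2-unit forms, GAANNTTC and TTCNNGAA, both of which also lie inside every 3-unit element, were in windows of 8.21% and 9.46% of all genes. Such a match describes the letters of the window and is not a measured binding site. The windows below show overlapping and single 3-unit elements and separate 2-unit matches in genes whose values are described later. HSPD1 is printed at chr2:197499791-197500090, HSP90AA1 at chr14:102086995-102087294 and DNAJB1 at chr19:14518348-14518647, each on the minus strand and read 5′ to 3′ along the gene. Capitals mark the 3-unit matches in HSPD1 and HSP90AA1 and the 2-unit matches in DNAJB1.
HSPD1: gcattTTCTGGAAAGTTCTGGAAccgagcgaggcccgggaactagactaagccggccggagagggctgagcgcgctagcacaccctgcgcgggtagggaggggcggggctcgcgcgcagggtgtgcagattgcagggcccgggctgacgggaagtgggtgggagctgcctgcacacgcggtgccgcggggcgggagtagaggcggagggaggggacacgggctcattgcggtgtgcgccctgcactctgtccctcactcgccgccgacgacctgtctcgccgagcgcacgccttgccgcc
HSP90AA1: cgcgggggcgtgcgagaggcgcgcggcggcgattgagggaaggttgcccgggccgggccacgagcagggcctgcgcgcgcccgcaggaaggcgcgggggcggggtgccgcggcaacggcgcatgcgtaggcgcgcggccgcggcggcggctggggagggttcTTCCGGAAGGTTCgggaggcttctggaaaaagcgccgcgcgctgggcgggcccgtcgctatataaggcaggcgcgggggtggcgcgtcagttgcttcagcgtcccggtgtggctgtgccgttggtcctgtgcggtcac
DNAJB1: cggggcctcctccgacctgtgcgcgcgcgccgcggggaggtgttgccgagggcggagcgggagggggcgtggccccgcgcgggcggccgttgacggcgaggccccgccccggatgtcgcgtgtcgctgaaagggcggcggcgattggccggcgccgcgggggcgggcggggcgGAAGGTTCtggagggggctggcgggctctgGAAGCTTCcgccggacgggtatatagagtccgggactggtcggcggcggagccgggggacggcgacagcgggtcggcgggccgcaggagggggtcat
In HSPD1 the element occurs 2 times in overlapping register. The HSP90AA1 window also holds a further TTCNNGAA match, left in lower case. A further annotated start site of HSPD1 lies 105 bases from the start site of HSPE1, the gene of its partner co-chaperonin, on the opposite strand, and their promoter windows share 204 bases. Neither of these 2 windows held a match of either length. The HSPD1 start site of the window printed above lies 539 bases from that of HSPE1, and those windows share 0 bases. The 3-unit element of HSPD1 was thus outside the HSPE1 window searched.

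The identity of the cells was checked on lineage markers. Of 10 B-lineage markers, 9 lay above the median gene (6.4 in log2 expression), led by DNTT at 13.09 in control, and VPREB1 at 5.5 did not. All 7 markers of T and NK cells lay below it, and of the 18 markers of myeloid, erythroid, platelet, fibroblast and epithelial cells, CSF1R, MPO, HBB and COL1A1 lay above it, with means over all arrays of 6.53, 7.5, 6.6 and 7.07. Arrays numbered replicate 3 stand apart from the others before any chaperone is considered. Those of different treatments correlated with each other at 0.9977 to 0.998, more closely than with the other arrays of their own treatment at 0.9907 to 0.9924. No control array carries the number 3, so results for the members against control are also given without these arrays where leaving them out moved a result. Those for further chaperone lists rest on all arrays. The ranges of the control probe sets for RNA integrity overlapped between replicate 3 and the other arrays. The 3′ minus 5′ difference of ACTB was 2.52 to 2.85 in the treated replicate 3 arrays, 2.45 to 3.17 in the other treated arrays and 2.56 to 2.96 in control. That of GAPDH was 0.56 to 0.71, 0.53 to 0.63 and 0.52 to 0.58. In the same order the medians were 2.8, 2.81 and 2.76 for ACTB and 0.64, 0.6 and 0.55 for GAPDH. So few arrays cannot show that RNA integrity was equal. In bulk RNA, fewer cells of a type and less RNA per cell cannot be told apart.

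**Figure D1:**
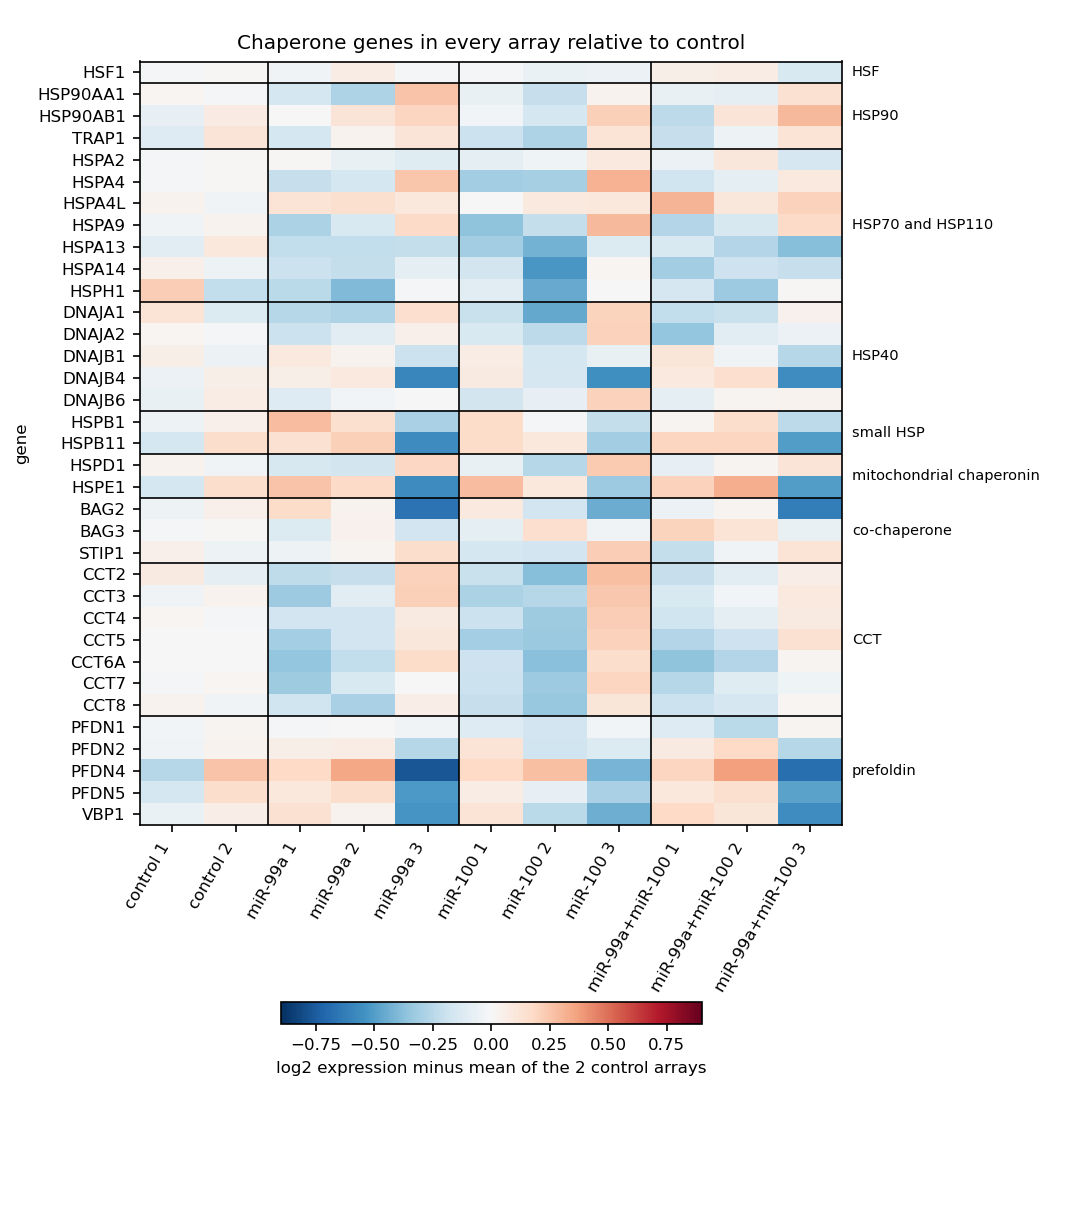
Each cell of the map is the log2 expression of a chaperone gene (rows, grouped by family) in an array (columns, by group and replicate number) minus the mean of the 2 control arrays, from blue (lower) to red (higher). The 7 CCT rows are blue or near 0 in treated replicates 1 and 2 and red or near 0 in replicate 3, and DNAJB4, HSPB11, HSPE1, BAG2, PFDN4, PFDN5 and VBP1 are blue in all 3 replicate 3 columns.

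The first question was whether miR-99a, miR-100 or both changed the chaperones. No member passed the test after any treatment. Most lay slightly lower than in control, 30 of 35 after miR-99a, 30 after miR-100, 29 after both and 32 over all 9 treated arrays. But these counts were 26, 22, 23 and 23 with quantile normalization and 22, 29, 22 and 22 with replicates 1 and 2 only. Without control replicate 2 they were 23, 26, 22 and 24. Of all genes, 53%, 54%, 51.8% and 52.3% lay lower with all arrays. In limma's moderated test with adjustment over all genes, 0 of 35 members were called in each of the 4 comparisons, as were 0 of 19775 genes (0%). At an unadjusted p under 0.05 the test gave 0, 1, 2 and 1 members and 198, 305, 724 and 489 genes.

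The 7 CCT subunits all had lower fitted means. They lay below control after each treatment, with median differences of -0.127 after miR-99a, -0.11 after miR-100 and -0.104 after both, and none was called. With quantile normalization these medians were -0.066, -0.04 and -0.075, and without each array in turn they ran from -0.277 to -0.015. Those without replicate 3 were -0.227, -0.277 and -0.174. Not every setting kept all 7 below control. With quantile normalization CCT4 lay at 0 after miR-100 and CCT3 at 0.01 after both. After miR-99a, 6 were lower with the mean of all probe sets and 5 without miR-99a replicate 1. After miR-100, 4 were lower without miR-100 replicate 2. After both, 6 were lower without control replicate 2 or without replicate 1 of the combination. Second probe sets of CCT2 and CCT6A gave 0.09 and -0.07 after miR-99a. The prefoldin medians were -0.075, -0.1 and -0.08, but without replicate 3 of the treatment they were 0.085 after miR-99a and 0.132 after both. The prefoldin median after miR-100 stayed below 0 without each array in turn. It ran from -0.25 without control replicate 1 to -0.024 without control replicate 2. The medians of the 23 heat shock genes were -0.055, -0.053 and -0.039. After miR-100 theirs was -0.124 without replicate 3 and -0.027 without replicate 2 of that treatment, and after both it was -0.067 and -0.022 without control replicates 1 and 2. The median of all genes was -0.006, -0.008 and -0.004. Genes with a mean of 10 to 12, where all 7 CCT and 4 of the 5 prefoldin genes fall, had medians of -0.068, -0.079 and -0.066, and still brighter genes had -0.057, -0.037 and 0.083. These 3 comparisons share the control arrays.

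HSPA13 had the smallest p among the members in each comparison with control but that of the combination, where HSPA4L was ahead. It encodes an HSP70-like ATPase of the microsomes. Its log2 expression was 10.23 and 10.42 in control, 10.1, 10.1 and 10.11 after miR-99a, 10.01, 9.9 and 10.2 after miR-100, and 10.19, 10.06 and 9.94 after both, in the order of the replicate numbers, which is kept below. All 9 treated arrays lay below both controls, as did those of 316 of all genes (1.6%), and HSPA13 was the only member to do so. The difference over all treatments was -0.26 ± 0.09 (SE, 9 against 2 arrays), a level 1.19-fold lower, with an adjusted p of 1 in limma's test. A dimmer probe set of the gene gave -0.28.

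HSPA14, an HSP70 that sits at the ribosome, stood at 10.26 and 10.17 in control, 10.02, 10 and 10.13 after miR-99a, 10.05, 9.69 and 10.23 after miR-100, and 9.9, 10.03 and 10.01 after both. The miR-100 replicate 3 array lay inside the control range and the other 8 below it. Its difference over all treatments was -0.21 ± 0.11, and dimmer probe sets of the gene gave -0.08 and -0.11. HSPA4L, an HSP110 protein best known from testis, was the member furthest above control relative to its error, at 0.2 ± 0.07 after both oligos. Its values were 4.89 and 4.82 in control, 4.98, 5 and 4.95 after miR-99a, 4.85, 4.94 and 4.95 after miR-100, and 5.16, 4.96 and 5.06 after both, which is among the dimmest genes of the array and close to its lower end of 4.4. Neither gene was called.

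**Figure D2:**
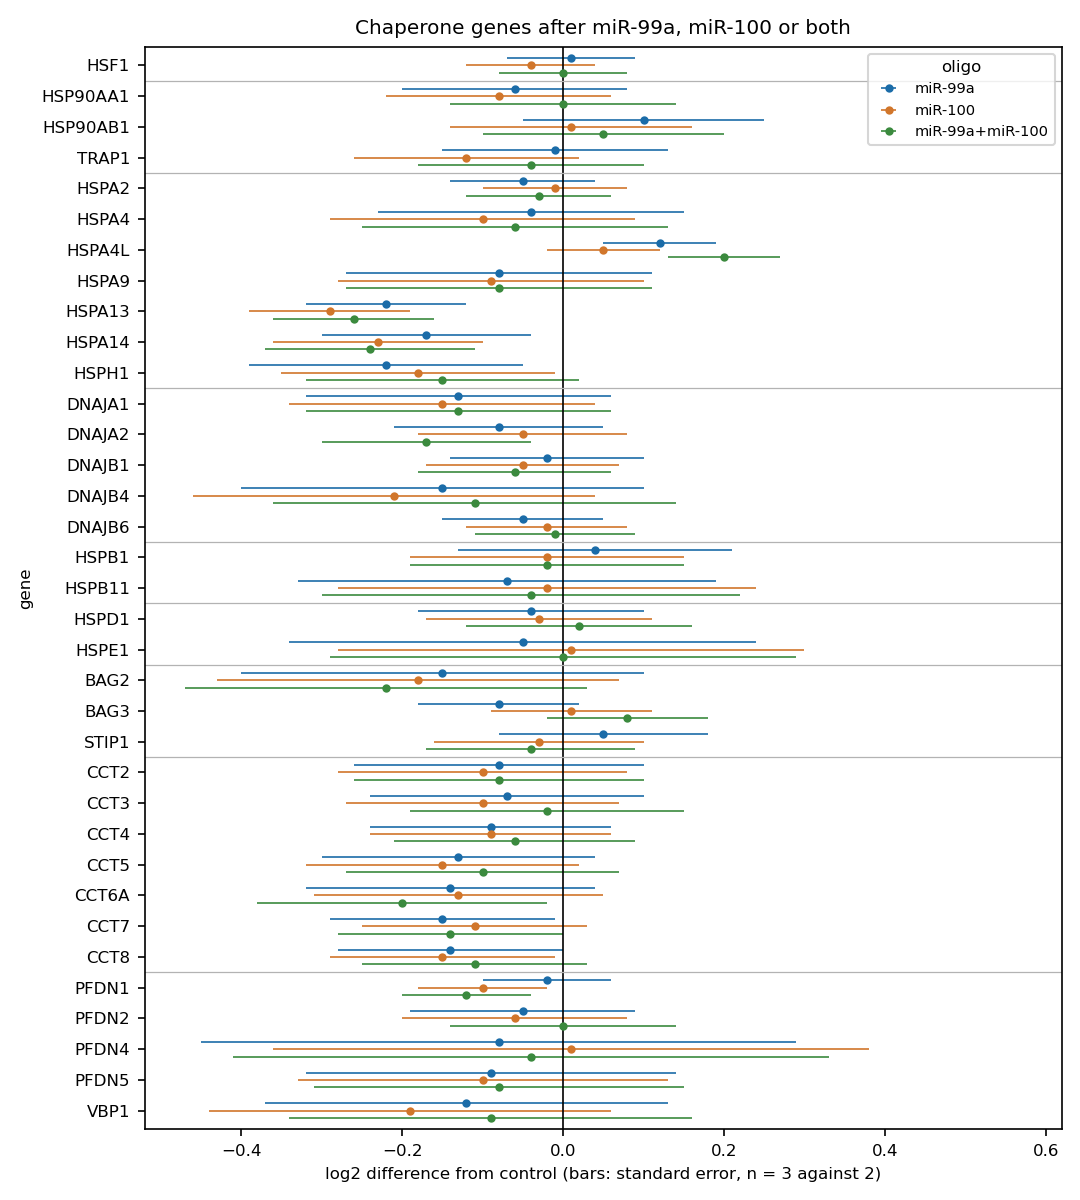
Points are log2 differences from control for each chaperone gene after miR-99a (blue), miR-100 (orange) or both (green), and bars are standard errors of the fit, with 3 treated arrays against 2 controls. Most bars reach 0, HSPA13 lies at -0.22 to -0.29 in the 3 comparisons, and the 7 CCT genes lie between -0.02 and -0.2.

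The treatments were then set against each other. No member was called between miR-100 and miR-99a or between the combination and the mean of the single oligos, with 0 genes called in each (0%), 0 members and 194 and 451 genes at an unadjusted p under 0.05. A block on the replicate number assumes that the numbers pair the treated arrays, which could not be settled. For CCT6A the difference of miR-100 from miR-99a was 0 with a 95% interval of -0.35 to 0.35, or -0.15 to 0.15 with that block. For HSP90AA1 it was -0.02 (-0.29 to 0.26, with the block -0.17 to 0.13). For PFDN4 it was 0.09 (-0.65 to 0.82, with the block -0.07 to 0.25). The median CCT difference was -0.008 between the single oligos and 0.026 between the combination and the single oligos, and leaving out an array turned the sign of either (-0.166 to 0.109 and -0.055 to 0.101). These intervals do not show that the oligos act alike.

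Taking only replicates 1 and 2, the CCT subunits lay further below control. Over the 6 treated arrays the median CCT difference from control was -0.224, against -0.001 for all genes and -0.055 for genes with a mean of 10 to 12. CCT6A was the only member called in limma's test on these arrays, at -0.29 ± 0.07 with an adjusted p of 0.0476, where 198 genes (1%) were called. CCT5 gave -0.26 ± 0.07 with an adjusted p of 0.0533 and HSPA13 -0.26 ± 0.07 with 0.0582. In the separate comparisons no member was called after miR-99a, miR-100 or both, with 0 genes (0%), 0 genes (0%) and 290 genes (1.47%) called. At an unadjusted p under 0.05 these gave 16, 15 and 14 members, and 1902, 3412 and 3043 of all genes.

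The values themselves show how the CCT arrays lie. CCT6A was 10.85 and 10.84 in control, 10.5, 10.62 and 11.01 after miR-99a, 10.66, 10.47 and 11 after miR-100, and 10.48, 10.58 and 10.87 after both. All 6 treated arrays of replicates 1 and 2 lay below control and all 3 of replicate 3 above it. CCT5 had the same order, with 11.06 and 11.05 in control, 10.75, 10.88 and 11.16 after miR-99a, 10.75, 10.72 and 11.26 after miR-100, and 10.79, 10.87 and 11.19 after both. CCT2 was 11.97 and 11.81 in control, 11.66, 11.68 and 12.1 after miR-99a, 11.69, 11.51 and 12.16 after miR-100, and 11.68, 11.79 and 11.95 after both, so that the last of these fell between the controls.

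By position alone, 13 of the 35 members lay below both controls in all 6 treated arrays of replicates 1 and 2, as did 10.9% of all genes, and 0 lay above (5.28% of all genes). In the 3 treated arrays of replicate 3, 13 members lay below control (17.2% of all genes) and 11 above (18.1%). Lower in replicates 1 and 2 and higher in replicate 3 were 6 members, namely HSP90AA1, HSPA4, HSPA9, CCT4, CCT5 and CCT6A, where the share of all genes was 3.13%. The opposite course was taken by 0 members and 1.63% of all genes. Of the 1288 genes with a mean of 10 to 12, 314 lay below control in replicates 1 and 2, and 90 then lay above it in replicate 3. In the replicate 3 arrays, 632 of these 1288 genes lay below control and 192 above. The shares of all genes are thus not those of genes of like brightness. This count by position was added after the data were seen.

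Larger differences ran between replicate 3 and the other treated arrays. That split was chosen because these arrays were known to stand apart, so the calls describe these arrays. What set replicate 3 apart was not tested. Over the 9 treated arrays with treatment as a covariate, 27 of 35 members were called, 17 higher and 10 lower in replicate 3, beside 29.3% of all genes, 17.1% higher and 12.2% lower. Calls are more frequent among bright genes. With only the 9888 genes at or above the median gene, 57% were called, and 28 of the 32 members that remain. Without overlap between replicate 3 and the other treated arrays were 17 members higher and 8 lower, against 14.9% and 11% of all genes. Of 10 B-lineage markers 2 were called higher and 2 lower, and of the 25 markers of other lineages none was called.

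The CCT and prefoldin genes, which act in sequence on tubulin and actin, lay on opposite sides. All 7 CCT subunits measured were higher in replicate 3, by 0.27 (CCT7) to 0.41 (CCT5 and CCT6A), with a median of 0.365. CCT7 was not called without miR-100 replicate 3 (0.18, adjusted p = 0.0832), nor CCT8 with the mean of all probe sets (0.12, 0.176). Of 5 prefoldin subunits 4 were lower, and PFDN1 at 0.1 ± 0.07 was not called (adjusted p = 0.308 in limma's test). The prefoldin median was -0.511. All genes had a median of 0.001, and those with a mean of 10 to 12 had -0.092, so the CCT subunits lay above and 4 prefoldin subunits below genes of like brightness. The 95% intervals of the 7 CCT differences, from 0.13 at the lowest, do not reach those of PFDN2, PFDN4, PFDN5 and VBP1, which end at -0.13 at the highest. The difference between the groups was not tested as such.

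Among the prefoldin subunits PFDN4 differed most. It was 10.61 and 11.13 in control, 11.05, 11.22 and 10.1 after miR-99a, 11.05, 11.14 and 10.45 after miR-100, and 11.06, 11.24 and 10.19 after both. Every replicate 3 array lay below both controls and all other treated arrays, and the fit gave -0.88 ± 0.07 (SE, 3 against 6 arrays), 1.84-fold lower, with an adjusted p of 2.12e-13. Dimmer probe sets of PFDN4, with means of 6.96 and 6.12, gave -0.44 and -0.04, and the mean of all its probe sets gave -0.45. VBP1, the prefoldin subunit first found as a partner of the VHL protein, was 11.45 and 11.57 in control, 11.65, 11.54 and 10.98 after miR-99a, 11.63, 11.27 and 11.07 after miR-100, and 11.69, 11.62 and 10.95 after both. Its replicate 3 arrays were the 3 lowest of all 11, and its difference was -0.57 ± 0.07. PFDN5, which also binds MYC, gave -0.51 ± 0.07.

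PFDN2 was 10.21 and 10.27 in control, 10.29, 10.31 and 9.98 after miR-99a, 10.36, 10.06 and 10.12 after miR-100, and 10.32, 10.42 and 9.98 after both. The miR-100 arrays overlap here, since replicate 2 lay below replicate 3, and the difference of -0.27 ± 0.07 was no longer called without the combination's replicate 3 array (-0.21, adjusted p = 0.0834). PFDN2 therefore rests in part on that array.

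**Figure D3:**
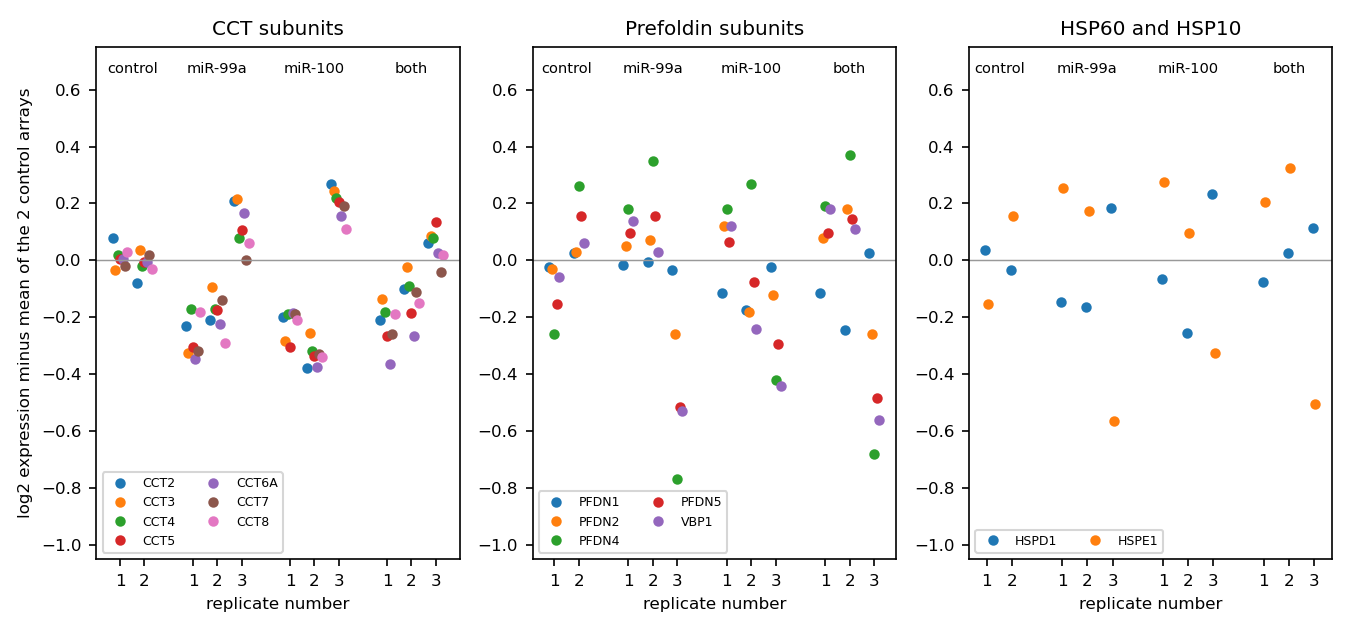
Points are log2 expression minus the mean of the 2 control arrays, by group and replicate number, for the 7 CCT subunits (left), 5 prefoldin subunits (middle) and the mitochondrial chaperonin pair HSPD1 and HSPE1 (right). In each treatment the CCT points of replicate 3 lie above those of replicates 1 and 2, HSPE1 and most prefoldin subunits lie below them, and PFDN1 does not follow.

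The mitochondrial chaperonin showed the same kind of divergence within a single machine. HSPD1 encodes HSP60, the folding chamber, and HSPE1 encodes HSP10, its lid. HSPD1 was 12.69 and 12.62 in control, 12.51, 12.49 and 12.84 after miR-99a, 12.59, 12.4 and 12.89 after miR-100, and 12.58, 12.68 and 12.77 after both. HSPE1 was 11.47 and 11.78 in control, 11.88, 11.8 and 11.06 after miR-99a, 11.9, 11.72 and 11.3 after miR-100, and 11.83, 11.95 and 11.12 after both. In replicate 3 HSPD1 lay above all other treated arrays and HSPE1 below them, by 0.29 ± 0.07 and -0.69 ± 0.07, with 95% intervals of 0.16 to 0.43 and -0.82 to -0.55. A second bright probe set of HSPD1 gave 0.4. These genes lie on opposite strands, with annotated HSPD1 start sites 105 and 539 bases from that of HSPE1.

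The HSP90 genes were all higher in replicate 3. HSP90AA1, the stress-inducible cytosolic form, was 13.08 and 13.05 in control, 12.91, 12.79 and 13.32 after miR-99a, 13, 12.86 and 13.1 after miR-100, and 13, 12.98 and 13.2 after both. HSP90AB1, the constitutive form, was 12.35 and 12.5 in control, 12.42, 12.54 and 12.62 after miR-99a, 12.4, 12.27 and 12.64 after miR-100, and 12.19, 12.54 and 12.72 after both. The differences were 0.28 ± 0.07 for HSP90AA1, 0.27 ± 0.07 for HSP90AB1 and 0.26 ± 0.07 for TRAP1, the mitochondrial form, and in replicate 3 each of the 3 lay above all other treated arrays. The median difference of genes as bright as HSP90AA1 and HSP90AB1 (mean of 12 or more) was -0.231, and of genes as bright as TRAP1 (8 to 10) it was 0.126. HSP90AA1 was not called without the miR-99a replicate 3 array (0.19, adjusted p = 0.0902), nor HSP90AB1 without that of the combination (0.23, 0.062), nor TRAP1 with the mean of all probe sets (0.14, 0.079).

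Of the 7 HSP70 and HSP110 genes measured, 3 were called higher and none lower, beside 17.1% and 12.2% of all genes. HSPA9, the mitochondrial HSP70, was 11.22 and 11.29 in control, 10.97, 11.12 and 11.43 after miR-99a, 10.89, 11.04 and 11.55 after miR-100, and 10.99, 11.11 and 11.43 after both. HSPA4, a nucleotide exchange factor of the HSP110 family, was 10.37 and 10.39 in control, 10.17, 10.22 and 10.63 after miR-99a, 10.07, 10.08 and 10.69 after miR-100, and 10.2, 10.3 and 10.47 after both. For both genes the controls lay between the low arrays of replicates 1 and 2 and the high arrays of replicate 3. The differences of replicate 3 from replicates 1 and 2 were 0.45 ± 0.07 for HSPA9, 1.37-fold, and 0.42 ± 0.07 for HSPA4, 1.34-fold.

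HSPH1, the inducible HSP110, was 9.27 and 8.83 in control, 8.81, 8.65 and 9.03 after miR-99a, 8.95, 8.6 and 9.05 after miR-100, and 8.9, 8.72 and 9.06 after both. Its 2 controls were further apart than the difference of 0.28 ± 0.07 between replicate 3 and the other treated arrays. HSPA2, HSPA4L and HSPA13 gave -0.03, 0 and 0.02, and HSPA14 gave 0.17 with an adjusted p of 0.0679. HSPA14 was called higher with quantile normalization (0.2, 0.0118), the filter on dim genes (0.17, 0.0378) and the mean of all probe sets (0.22, 0.0155), and without miR-100 replicate 1 (0.2, 0.0352) or replicate 2 (0.2, 0.0366) or 3 (0.24, 0.0493) of the combination. HSPA13 thus lay below control in both sets of treated arrays, at -0.26 in replicates 1 and 2 and -0.24 in replicate 3.

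Both type A genes of the HSP40 family were higher and 2 of its 3 type B genes lower. DNAJA1, a type A J protein that pairs with HSP70 in the cytosol, was 10.82 and 10.58 in control, 10.44, 10.42 and 10.85 after miR-99a, 10.5, 10.24 and 10.9 after miR-100, and 10.48, 10.5 and 10.74 after both, a difference of 0.4 ± 0.07 in replicate 3. Its replicate 3 arrays lay above all other treated arrays and overlapped with the controls. DNAJA2, of the same type, gave 0.25 ± 0.07 and was not called without miR-100 replicate 3 (0.18, adjusted p = 0.1). DNAJB4, a type B J protein, was 7.88 and 7.98 in control, 7.98, 8.02 and 7.34 after miR-99a, 8.01, 7.78 and 7.38 after miR-100, and 8.02, 8.08 and 7.37 after both. The 3 replicate 3 arrays were the lowest of all 11, with a difference of -0.62 ± 0.07, 1.53-fold.

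DNAJB1, the type B J protein most often used as a readout of heat shock, was 9.19 and 9.09 in control, 9.23, 9.17 and 8.95 after miR-99a, 9.21, 8.98 and 9.07 after miR-100, and 9.25, 9.11 and 8.88 after both. The miR-100 arrays overlap, since replicate 3 lay above replicate 2. The call (-0.19 ± 0.07, adjusted p = 0.028) was lost without miR-99a replicate 1 (-0.18, 0.0692) or replicate 3 (-0.16, 0.187), without miR-100 replicate 1 (-0.18, 0.0673), without replicate 1 (-0.16, 0.0947) or replicate 3 (-0.14, 0.276) of the combination, and with the mean of all probe sets (-0.15, 0.0583). DNAJB6, which restrains protein aggregation, gave 0.15 ± 0.07 and was not called.

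Heat shock factor 1 itself differed little. HSF1 was 7.93 and 7.95 in control, 7.91, 8.01 and 7.93 after miR-99a, 7.92, 7.88 and 7.89 after miR-100, and 7.99, 8.01 and 7.8 after both. The miR-100 arrays lay below both controls, the other treatments overlapped with control, and replicate 3 overlapped with the other treated arrays. Its difference in replicate 3 was -0.08 ± 0.07, and it was called only after quantile normalization, at -0.15 with an adjusted p of 0.0401. The transcript level of HSF1 does not measure its activity.

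Both genes of the small heat shock group were lower in replicate 3. HSPB1, known as HSP27, was 8.72 and 8.81 in control, 9.04, 8.91 and 8.47 after miR-99a, 8.93, 8.75 and 8.55 after miR-100, and 8.79, 8.92 and 8.53 after both, a difference of -0.38 ± 0.07 in replicate 3. For this gene and the next, the 3 replicate 3 arrays lay below all other arrays, controls included. HSPB11, which is now named for its part in intraflagellar transport, was 11.67 and 11.98 in control, 11.96, 12.04 and 11.26 after miR-99a, 11.99, 11.92 and 11.51 after miR-100, and 12.02, 12.02 and 11.32 after both. Its difference was -0.62 ± 0.07. A second probe set of HSPB11 gave -0.73, while its dimmest, with a mean of 6.73, gave 0.27.

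The co-chaperones did not move as a group. STIP1, the adaptor between HSP70 and HSP90, was 8.67 and 8.58 in control, 8.58, 8.65 and 8.78 after miR-99a, 8.47, 8.45 and 8.85 after miR-100, and 8.41, 8.59 and 8.75 after both. The replicate 3 arrays were the 3 highest, by 0.27 ± 0.07 over the other treated arrays. BAG2, an exchange factor that also inhibits the ubiquitin ligase CHIP, was 9.27 and 9.36 in control, 9.48, 9.35 and 8.65 after miR-99a, 9.4, 9.14 and 8.87 after miR-100, and 9.26, 9.34 and 8.69 after both. Its replicate 3 arrays were the 3 lowest, by -0.59 ± 0.07 against the other treated arrays. The dimmer probe sets of BAG2, with means of 6.79 and 6.15, gave 0.12 and -0.07.

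BAG3, the stress-induced exchange factor of selective autophagy, was dim, at 5.14 and 5.16 in control, 5.03, 5.19 and 4.98 after miR-99a, 5.07, 5.3 and 5.12 after miR-100, and 5.35, 5.27 and 5.08 after both. The treated arrays overlap, and it was not called, at -0.15 ± 0.07 with an adjusted p of 0.109, except without the miR-100 replicate 1 array (-0.18, 0.0465).

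**Figure D4:**
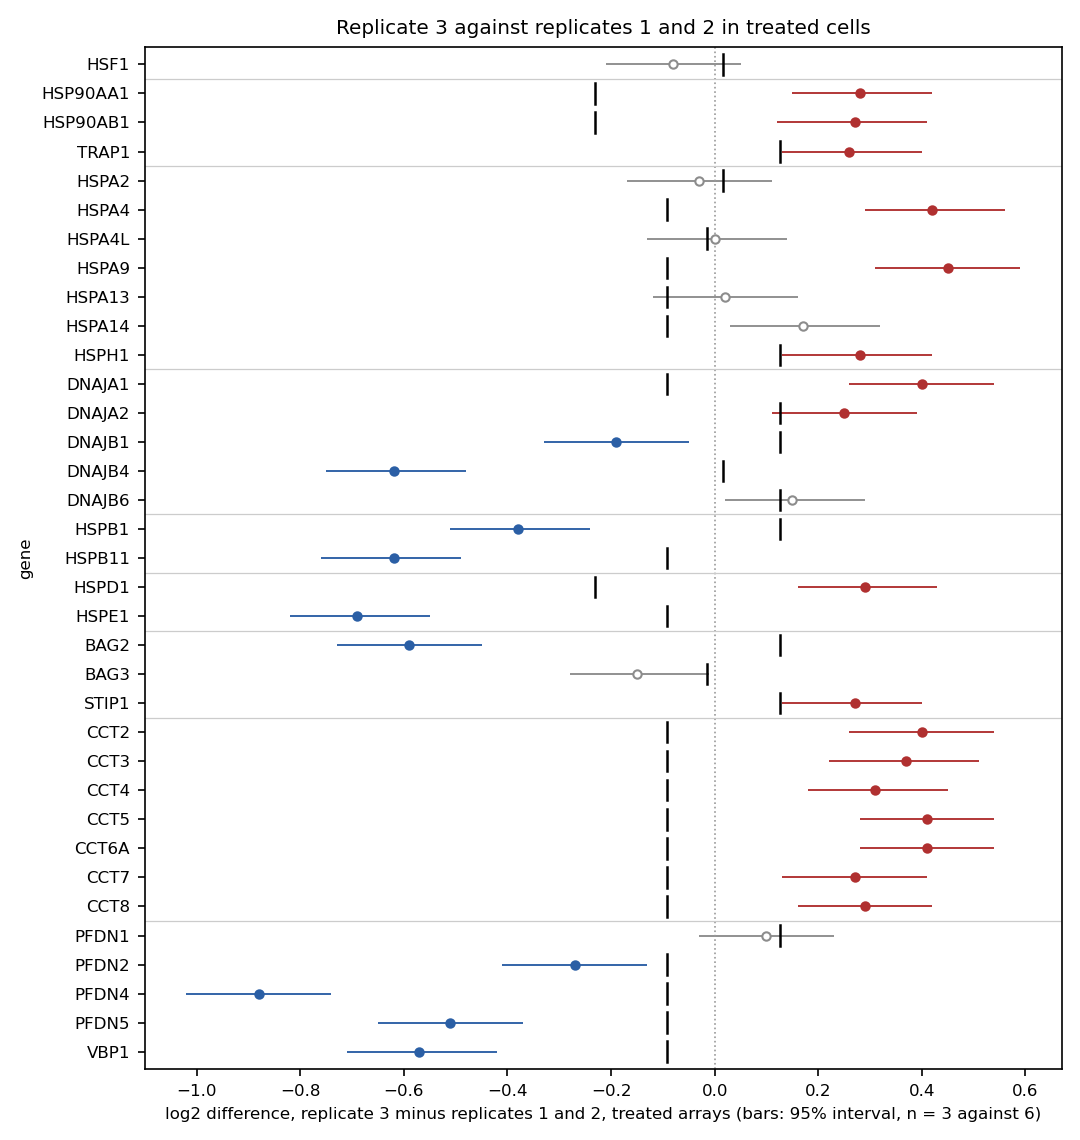
Points are log2 differences of the 3 treated replicate 3 arrays from the 6 other treated arrays with 95% intervals. Red points were called higher, blue points lower and open grey points neither, and the black tick of each gene marks the median difference of all genes in its class of mean level (under 6, 6 to 8, 8 to 10, 10 to 12, 12 or more). All 7 CCT subunits lie to the right at 0.27 to 0.41 and PFDN4, HSPE1, DNAJB4 and HSPB11 lie furthest to the left, from -0.88 to -0.62.

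The size of these differences varied with the treatment while their sign mostly did not. For the 7 CCT subunits replicate 3 lay above the mean of replicates 1 and 2 by 0.22 to 0.45 with miR-99a, 0.39 to 0.56 with miR-100 and 0.14 to 0.36 with both. PFDN4 lay below it by -1.03, -0.65 and -0.96. Probe sets of the same gene mostly went the same way. Among the called members, all 15 further probe sets with a mean of at least 8, from 11 genes, had the direction of the brightest, as did 30 of 35 at any brightness.

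Set against the heat shock element, 4 of the 5 genes with a 3-unit match were called higher in replicate 3 and none lower, with a median difference of 0.28. All 5 lie above the median gene. Of the 9888 genes at or above it, 3375 were called higher and 2266 lower, or 57% in either direction. Of all genes 17.1% were called higher. Of the 9 genes with only a 2-unit match 4 were called higher and 4 lower, and of the 17 with neither 8 and 5. HSPE1, HSPB11 and PFDN4 were among those without a match, and DNAJB1 and HSPB1 among those with 2 units. For HSPE1 this covers only its own window, which begins at chr2:197500129. The 3-unit element of HSPD1 lies upstream of the HSPE1 start, at chr2:197500090 or below, and so outside the bases searched for HSPE1.

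The wider chaperone network was read from lists that are not part of the 40 genes. Against control none of their genes was called after any treatment. Taking all treatments together, the HSP90 co-chaperone CHORDC1 gave -0.25 ± 0.11, the mitochondrial exchange factor GRPEL2 -0.24 ± 0.1, the J protein DNAJB14 -0.27 ± 0.1, the disulphide isomerase PDIA6 -0.15 ± 0.07 and the stress-induced HSP70 gene HSPA6 0.13 ± 0.06, each with an adjusted p of 1 in limma's test. The other genes with the smallest p of their list in a direction gave values above 0, with 0.16 for DNAJB2, 0.14 for HSPB2, 0.13 for the tubulin TUBB, 0.1 for PPP5C, 0.06 for P4HB, 0.06 for TBCD, 0.05 for HTRA2 and 0.01 for UXT, or below 0, with -0.23 for TXNDC9, -0.11 for the tubulin TUBA1A, -0.08 for TBCB, -0.06 for CLPB and -0.05 for HSPB7. None of these was called.

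In replicate 3, 12 of 24 HSP90 co-chaperones were called higher and 2 lower. Beside this and the counts of the lists below, 17.1% of all genes were called higher and 12.2% lower. Among genes at or above the median gene 57% were called in either direction, and no list was tested against these shares. RPAP3 of the R2TP complex gave 0.4 ± 0.08 and TSC1 0.32 ± 0.07, while PTGES3, the p23 protein, gave -0.29 ± 0.07 and CDC37L1 -0.22 ± 0.07. Of 32 further J proteins 11 were higher and 6 lower. DNAJC2, which works with HSPA14 at the ribosome, gave 0.52 ± 0.07 and DNAJC7 0.53 ± 0.07, whereas DNAJC15 and DNAJC19 of the mitochondrial import motor gave -0.66 ± 0.07 and -0.56 ± 0.07. Of 15 other HSP70 and exchange factors 3 were higher, led by GRPEL1 at 0.29 and BAG5 at 0.25, and 3 lower, led by HSBP1, a binding partner of heat shock factor 1, at -0.58, and HSPBP1 at -0.41.

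Of 14 chaperones of the endoplasmic reticulum 5 were higher and 1 lower in replicate 3, beside 17.1% and 12.2% of all genes. HSP90B1 and DNAJC10 gave 0.33 ± 0.07 and 0.31 ± 0.07. DNAJB9, a J protein of the unfolded protein response, gave -0.9 ± 0.08, close to the -0.88 of PFDN4. Of 11 disaggregation factors and mitochondrial proteases 6 were higher and 1 lower, with CLPX at 0.31 and UFD1 at 0.27 and the protease subunit CLPP at -0.3. None of 8 other small heat shock genes was called, with differences of -0.06 (CRYAB, the lens and muscle chaperone) to 0.04 (HSPB7) and adjusted p-values from 0.569 in limma's test. This list was dim, with a median level of 5.69 to 5.82 by array, below the median gene at 6.4, which limits what can be seen.

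The steps around tubulin folding also held both directions, beside 17.1% of all genes called higher and 12.2% lower. Of 7 cofactors of CCT and prefoldin, PDRG1 was higher at 0.2 ± 0.07, and UXT, a prefoldin-like subunit, and TXNDC9 were lower at -0.68 ± 0.07 and -0.51 ± 0.07. Of 7 tubulin folding cofactors 3 were higher, led by TBCE at 0.48 ± 0.07 and TBCD at 0.3 ± 0.07, and TBCA, which binds beta-tubulin after CCT, was lower at -0.54 ± 0.07. Among 11 tubulin and actin genes, the clients themselves, TUBA4A was higher at 0.25 ± 0.07 and ACTB lower at -0.26 ± 0.06, and the median was 0.026.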

How the data were processed

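Values were the log2 expression values deposited by the authors for 11 Affymetrix arrays. The table holds 54675 probe sets with array medians of 5.95 to 5.98. How they were summarised and normalized is not given in the sources used here; these steps can leave differences at high intensity. The log2 scale was read from the range of 4.4 to 14.84. Depth has no meaning for arrays, and their number limits the precision. Probe sets listed with several genes (1801) or none (11777) were left out, and each of 19775 genes was represented by its brightest probe set. Gene identifiers of 41037 of 41091 probe sets matched RefSeq (GRCh38.p14).

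Group means over all 11 arrays were compared by limma (version 3.58.1, R 4.3.3), 2-sided, with Benjamini-Hochberg adjustment over all genes and calls at an adjusted p under 0.05. Replicate 3 was compared with replicates 1 and 2 in the 9 treated arrays with treatment as a covariate. The fits were tested on simulated data with independent noise in each array. Those data held no offset shared by arrays of a replicate number, so the test does not cover the offset of replicate 3. The numbers were checked as a pairing: after removal of group means, same-numbered arrays of different treatments correlated in 9 of 9 pairs (0.168 to 0.816, minimum 0.1), and a control with a treated array in 3 of 6 (-0.152 to 0.438). In every treatment the deviations from group means share the offset of replicate 3, which can give such correlations without a pairing by number. Arrays with different numbers were not compared. The check therefore cannot decide whether the numbers pair treated arrays, and a pairing with control was not shown. With a replicate block, 0 members were called in either comparison between treatments, as without it.

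The members and lists were chosen with earlier results of these data known. Values in every array are given for up to 6 called members with the smallest p in each direction per comparison, otherwise for the 2 smallest per direction against control, and for a set of well-known members. Other members were named after their values were seen. From each further list the 2 called genes with the smallest p per direction are named, or 1 where none was called. Promoter windows are 300 bases, 250 before and 50 after the start. Alternatives were quantile normalization, a filter on dim genes, the mean of all probe sets, a replicate block, replicates 1 and 2 only, a term for replicate 3, only the groups compared, no treatment term and leaving out each array. The positions of treated arrays of replicates 1 and 2, and of replicate 3, against both controls were added after the data were seen.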

Additional observations from a re-analysis of the deposited data

How the results depend on the processing

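Against control 0 members were called under quantile normalization, the filter on dim genes, the mean of all probe sets, only the groups compared, and without any of the 11 arrays. With a replicate block, whose numbers were not shown to pair treated with control arrays, 2 members were called lower after both oligos in limma's test (HSPA14 at -0.29, adjusted p = 0.0464, and CCT6A at -0.34, 0.0145). Over all treatments 5 were called lower (HSPA14 -0.27, HSPH1 -0.28, DNAJA1 -0.27, CCT5 -0.26 and CCT6A -0.29). Beside these stood 863 and 507 of all genes (4.36% and 2.56%), and no member was called after miR-99a or miR-100. Without the block, the probe set used for HSPH1 gave -0.18 over all treatments, and others with means of 8.85 and 6.89 gave -0.02 and -0.08. Further probe sets gave -0.08 and -0.11 for HSPA14 (-0.21 in the one used) and -0.13 for DNAJA1 (-0.14). For CCT6A a further one gave -0.09 (-0.16), and for CCT5 one with a mean of 6.5 gave 0.03 (-0.13). A term for replicate 3 gave 1 member after both (CCT6A), beside 443 of all genes (2.24%), and replicates 1 and 2 only gave 1 over all treatments (CCT6A). The cause of these calls was not tested. Between treatments no alternative called a member.

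In replicate 3 against replicates 1 and 2 the count of members called was 25 to 28 without each array in turn, against 27 with all of them, and 27 of those 27 were called again with quantile normalization and 24 with the mean of all probe sets. The medians moved more. Quantile normalization gave 0.082 for the heat shock genes (0.152 as reported), 0.511 for CCT (0.365) and -0.372 for prefoldin (-0.511), and the filter on dim genes gave 0.21 for the heat shock genes. Without each array the heat shock median ran from 0.066 (without miR-100 replicate 3) to 0.196, and the CCT median from 0.291 (without the same array) to 0.434. No called value changed sign under these alternatives. The 2 control arrays and values near the lower end of the array limit what can be seen for dim members such as BAG3 and HSPA4L.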
